A study of Danio rerio with 6 samples.

Results

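Transcript levels of 9 retinal transcription factor genes, vsx1, atoh7, rx1, rx2, six3a, six3b, six7, nr2e3 and nrl, were followed in heads of zebrafish (Danio rerio) larvae. The genes were taken by name from a table of raw counts for 32520 genes, and all 9 names were found. The libraries came from larvae at 3 days post fertilization, either homozygous for the y712 allele of srrm4 or wild-type siblings, with 3 libraries per genotype labelled replicate 1, 2 and 3. Srrm4 is a splicing regulator that favours the inclusion of very short exons in neurons, and the study's title asks how far its mutation affects neural development. No transgene, treatment or strain background is named for either genotype, and it is not stated whether heads were pooled or whether replicates came from separate clutches. P-values therefore measure the spread between these libraries, which may be partly technical.

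The vertebrate eye arises from the anterior neural plate, where homeodomain proteins of the Rx and Six3 families set aside the eye field and keep retinal progenitors dividing. Proneural proteins then push progenitors out of division, and further factors sort the newborn cells into ganglion cells, interneurons, cones and rods. In the zebrafish larva most of the central retina has differentiated by the age sampled here, while a ring at the retinal margin goes on adding cells, so head RNA holds transcripts of progenitors and of young neurons side by side.

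Total counts per library ranged from 52510621 to 101032166, and each of the 9 genes passed the filter on low counts, with between 206 and 15656 counts in a library. Libraries of replicate 1 stood apart from the other 4. Posterior hox genes are markers of the trunk and tail, and 15 of 19 were tested. All 19 summed to 117.5 and 132 CPM (counts scaled to library size) in replicate 1 and to between 14.4 and 21.6 CPM elsewhere. Forebrain and midbrain genes, markers of the sampled tissue (16 of 16 tested), summed to between 277.7 and 280.0 CPM in replicate 1 and to between 384.0 and 424.0 CPM elsewhere, and were present in every library. The mutated gene, srrm4, measured 41.1 ± 23.0 CPM in wild-type heads and 45.1 ± 22.9 in the mutants (SD, n = 3 each). Replicate 1 stood at 14.6 and 18.7 CPM against 53.6 to 58.7 CPM elsewhere, and the SD includes that spread. The edgeR adjusted p was 1 (log2 fold change 0.13, SE 0.62). Within pairs srrm4 was higher in the mutant by 0.36, 0.13 and 0.07 (log2), with a blocked estimate (each mutant library set against the wild-type library of the same number) of 0.18 (SE 0.062, unadjusted p 0.0255, edgeR adjusted p 0.939). These counts give no check of the genotype labels.

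None of the 9 retinal factors differed between mutant and wild-type heads beyond the spread of the libraries. In edgeR's quasi-likelihood test 0 of 9 passed an adjusted p of 0.05, as did 0 of all 24765 genes tested (0% higher and 0% lower in the mutant). At an unadjusted p under 0.05 there were 0 of the 9 and 0.283% of all genes. With the replicate number as a block, that is comparing each mutant library with the wild-type library of the same number, edgeR again called 0 of the 9 and 0% of all genes. In that fit 0 of the 9 and 4.6% of all genes had an unadjusted p under 0.05. DESeq2 with the block called 18 genes, 0.0283% of all genes as higher and 0.0444% as lower, and 0 of the 9. The mutant and wild-type libraries overlapped for every one of the 9, beside 0.945% of all genes that were lower and 1.09% that were higher in the mutant without overlap. In bulk RNA of this kind, fewer cells of a type and less RNA per cell cannot be told apart.

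**Figure D1:**
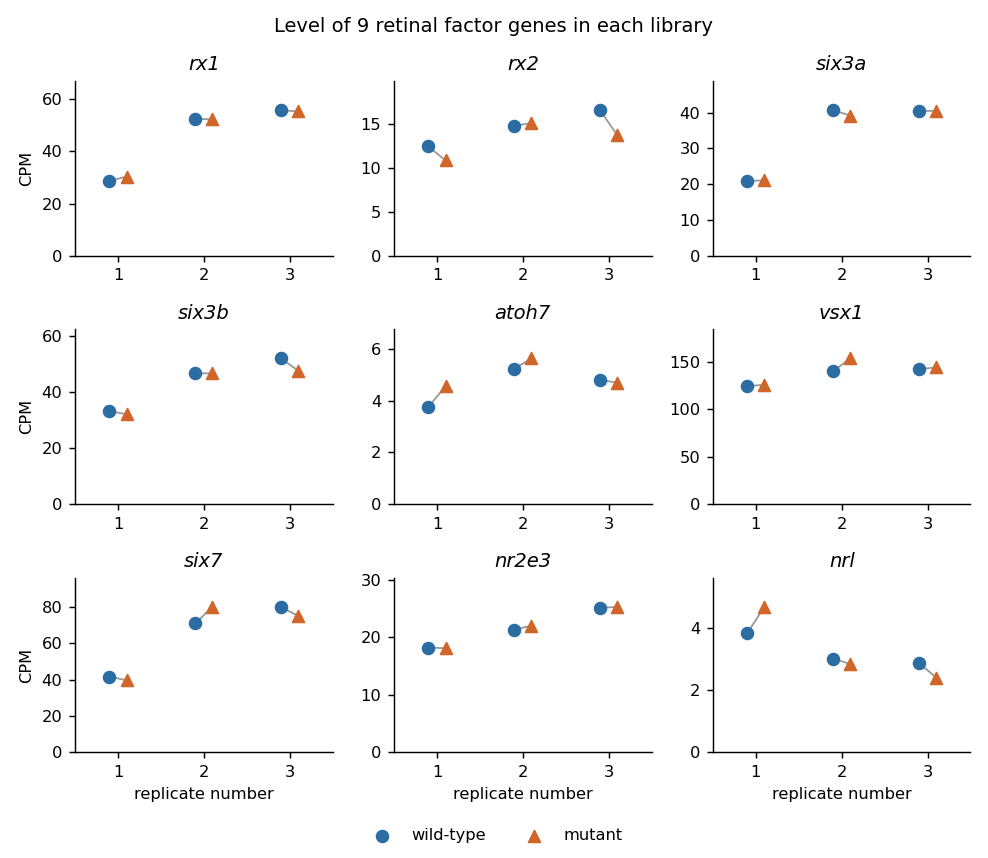
CPM (counts scaled to library size, linear axis from 0) of each of the 9 genes against replicate number, with circles for wild-type and triangles for mutant libraries and a grey line joining the libraries of 1 number. Replicate 1 was lowest for 8 genes and highest for nrl. Within each number the genotypes lay close together for rx1, six3a and nr2e3. They lay further apart in some numbers for atoh7, rx2 and nrl, with log2 ratios as far out as 0.28, -0.27 and 0.29.

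The eye field genes included rx1 and rx2, retinal homeobox genes that in zebrafish remain on in photoreceptors after the retina has formed. The gene rx1 (ENSDARG00000071684) was counted 1881, 5387 and 6153 times in the wild-type replicates, in numerical order, and 1370, 4674 and 6003 times in the mutants. On the CPM scale these levels were 28.7, 52.5 and 55.8 against 30.4, 52.3 and 55.3. Both replicate 1 libraries were low, and within each number the genotypes were nearly level. The group means were 45.7 ± 14.8 CPM for wild-type and 46.0 ± 13.6 for mutant (SD, n = 3 each). With the block the log2 fold change was 0.02 (SE 0.044), and the 95% interval corresponded to a fold of 0.942 to 1.09.

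Its paralog rx2 (ENSDARG00000040321) was the member with the most negative estimate. Counts were 815, 1517 and 1828 in wild-type and 490, 1352 and 1491 in mutant replicates 1, 2 and 3, or 12.5, 14.8 and 16.6 CPM against 10.9, 15.1 and 13.7 CPM. The mutant library was lower in pairs 1 and 3, by 0.20 and 0.27 on the log2 scale, and higher in pair 2 (0.03), so the groups overlapped. Means were 14.6 ± 2.07 CPM for wild-type and 13.2 ± 2.17 for mutant (SD, n = 3 each). Without the block the estimate on the log2 scale was -0.14 (SE 0.18), and -0.14 (SE 0.075) with the block, where the edgeR adjusted p was 0.939. A fold below 0.800 or above 1.02 lay outside the 95% interval of the blocked fit. The count ratio of rx1 to rx2 ran from 2.31 to 3.55 over the wild-type libraries and from 2.80 to 4.03 over the mutant libraries, which overlap.

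The genes six3a and six3b encode Six-family homeodomain proteins of the anterior neural plate, eye field and lens, and they also remain on in parts of the forebrain, so their head RNA is not from retina alone. Levels of six3a (ENSDARG00000058008) were 20.9, 40.7 and 40.5 CPM in wild-type heads and 21.1, 39.2 and 40.5 CPM in mutant replicates 1, 2 and 3. The replicate 1 libraries again lay far below the rest, and no pair differed by more than 0.054 on the log2 scale. For six3b (ENSDARG00000054879) the levels were 33.2, 46.6 and 51.9 CPM in wild-type heads and 32.1, 46.7 and 47.6 in the mutants. Here the mutant was lower in pairs 1 and 3 and level in pair 2. The blocked log2 fold changes were -0.01 (SE 0.045) for six3a and -0.06 (SE 0.046) for six3b, with intervals of 0.920 to 1.07 and 0.890 to 1.04 as folds. The count ratio of six3a to six3b was 0.629, 0.873 and 0.780 in wild-type and 0.658, 0.839 and 0.851 in mutant replicates 1, 2 and 3, and was thus lowest in replicate 1 in either genotype. Reads that match both copies of a duplicated gene may have been split or dropped in counting, and how far that touches the rx and six3 pairs was not tested.

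The proneural factor was atoh7 (ENSDARG00000069552), a basic helix-loop-helix gene without which zebrafish form no retinal ganglion cells, and it was the member with the most positive estimate. The counts were 246, 537 and 530 against 206, 504 and 510, wild-type before mutant in order of replicate number. Levels were 3.76, 5.23 and 4.81 CPM in wild-type heads and 4.57, 5.64 and 4.70 in the mutants. The mutant was higher in pairs 1 and 2 (0.28 and 0.11, log2) and slightly lower in pair 3 (-0.03). The group means of 4.60 ± 0.76 and 4.97 ± 0.583 CPM (SD, n = 3 each) differed by less than the spread within either group. With the block the log2 fold change was 0.11 (SE 0.098), at an edgeR adjusted p of 0.943. The interval, 0.916 to 1.27 as a fold, was wider than for the more abundant members.

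The gene vsx1 (ENSDARG00000056292), a paired-like homeobox gene of bipolar interneurons, had the highest counts of the 9. Its levels were 124, 140 and 142 CPM in wild-type heads and 125, 153 and 144 CPM in mutant replicates 1, 2 and 3. It was the only member higher in the mutant in all 3 pairs, by 0.01, 0.13 and 0.02 on the log2 scale, beside 13.1% of all genes that did the same. No member was lower in all 3 pairs, as 13.8% of all genes were. The group means were 135 ± 9.66 and 141 ± 14.1 CPM (SD, n = 3 each), and the blocked log2 fold change was 0.05 (SE 0.042), 0.969 to 1.11 as a fold.

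Among the photoreceptor factors, six7 acts in cone precursors of fish and is needed for the green-sensitive opsins of zebrafish. The gene (ENSDARG00000070107) stood at 41.8, 71.1 and 80.0 CPM in wild-type heads and 39.7, 80.2 and 75.2 CPM in mutant replicates 1, 2 and 3. Its pair ratios pointed in different directions, with the mutant higher in pair 2 (0.17, log2) and lower in pairs 1 and 3 (-0.08 and -0.09). The blocked log2 fold change was close to 0 at 0.005 (SE 0.061), with an interval of 0.907 to 1.11 as a fold.

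Rod fate was represented by nr2e3, a nuclear receptor gene required for rods in zebrafish, and by nrl, a Maf-family gene that specifies rods in mice and larval rods in zebrafish. Levels of nr2e3 (ENSDARG00000045904) were 18.2, 21.3 and 25.1 CPM in wild-type heads and 18.1, 22.0 and 25.3 CPM in mutant replicates 1, 2 and 3. The genotypes were nearly level within each number. Replicate 3 exceeded replicate 2 by 0.22 on the log2 scale. That difference was 0.08 for rx1, 0.01 for rx2, 0.02 for six3a, 0.09 for six3b and 0.04 for six7. It was negative for vsx1 (-0.04), atoh7 (-0.19) and nrl (-0.15). The blocked log2 fold change of nr2e3 was 0.02 (SE 0.048), 0.935 to 1.10 as a fold.

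The gene nrl (ENSDARG00000100466) was counted 251, 309 and 317 times in wild-type and 211, 254 and 261 times in mutant replicates 1, 2 and 3, or 3.83, 3.01 and 2.88 CPM against 4.68, 2.84 and 2.41 CPM. It was the member whose order of libraries was turned around, with replicate 1 highest in either genotype, and mutant libraries were both the highest and the lowest of all 6. The pair ratios were 0.29, -0.08 and -0.26 (log2). The log2 fold change was 0.02 (SE 0.29) without the block and -0.02 (SE 0.13) with it, an interval of 0.790 to 1.22 as a fold and the widest of the 9. The count ratio of nr2e3 to nrl, both rod genes, was 4.75, 7.08 and 8.73 in wild-type and 3.87, 7.75 and 10.5 in mutant replicates 1, 2 and 3. The ratio was lowest in replicate 1 and highest in replicate 3 in either genotype.

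**Figure D2:**
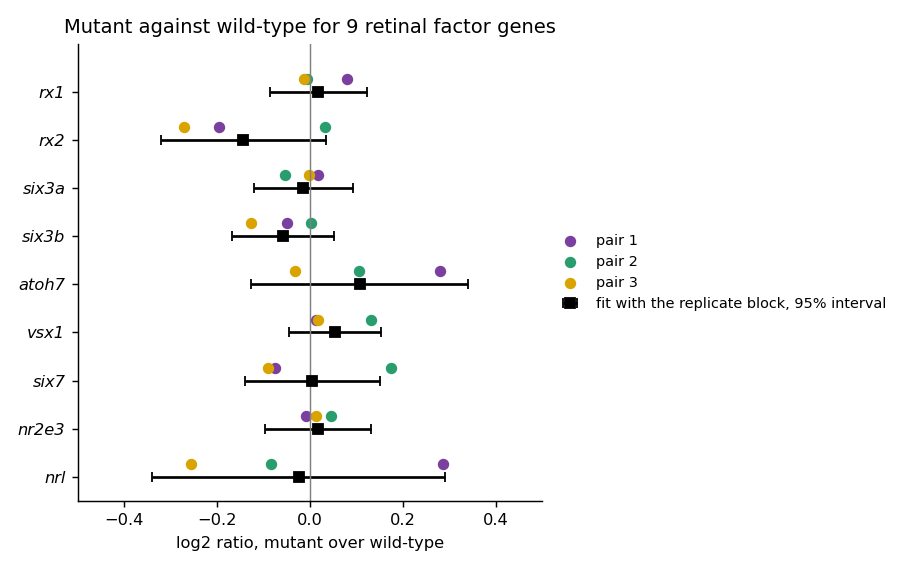
Log2 ratio of mutant over wild-type for each of the 9 genes, with coloured points for the 3 pairs of equal replicate number and a square with its 95% interval for edgeR's fit with the replicate block. Every interval covers 0. The estimates run from -0.14 (rx2) to 0.11 (atoh7), and the intervals of atoh7 and nrl are the widest.

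Over the 9 genes the blocked estimates had a median of 0.005 on the log2 scale, beside -0.001 over all tested genes, with 5 above and 4 below 0. Of the 27 pair ratios, 14 were below 0, and they ran from -0.27 to 0.29. The outermost bounds of the 9 intervals with the block were folds of 0.790 for nrl and 1.27 for atoh7. Without the block the standard errors were between 0.15 and 0.35, against 0.042 to 0.133 with it.

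The other genes of the same developmental steps gave the same count of calls. Of 81 further retinal factors, 0 passed in either direction in edgeR with or without the block or in DESeq2 with the block. In edgeR's blocked fit 8 of the 81 had an unadjusted p under 0.05, a larger share than the 4.6% of all genes. Without the block there were 0 of the 81, beside 0.283% of all genes. Blocked DESeq2 gave 2 of the 81, beside 397 of 24765 genes. These lists are not particular to retina, and fezf2, eomesa and barhl2 are also in the forebrain and midbrain list. The part of other head tissue in their values was not tested. The blocked estimate was above 0 for 48 and below 0 for 33, with a median of 0.026. A total of 15 (18.5%) were higher in the mutant in all 3 pairs and 5 (6.17%) were lower, beside 13.1% and 13.8% of all genes. The median was above 0 in pair 2 alone, at 0.079, against -0.015 in pair 1 and -0.022 in pair 3. In edgeR with the block but without pair 2, the medians of the 4 lists that follow became -0.024 for eye field and progenitor genes, -0.0099 for neurogenic genes, 0.015 for photoreceptor fate genes and -0.026 for ganglion cell and interneuron genes.

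Among 20 eye field and progenitor genes the blocked median was 0.003, with 10 above and 10 below 0. The smallest p in the genotype test belonged to hes6, a Hes-family bHLH gene of neural progenitors, at 32.5, 29.5 and 27.8 CPM in wild-type heads and 32.2, 35.9 and 29.8 in the mutants. Its blocked log2 fold change of 0.13 (SE 0.064) rested mainly on pair 2 and did not pass (edgeR adjusted p 0.939). The master eye gene pax6a was level between the genotypes, at -0.01 (SE 0.037), and its duplicate pax6b stood at -0.06 (SE 0.048).

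In the 22 neurogenic genes the blocked median was 0.032, with 15 above and 7 below 0. The gene foxn4, which drives progenitors toward amacrine and horizontal cells, stood at 0.16 (SE 0.066) and neurog1, a proneural gene of brain and cranial ganglia, at 0.19 (SE 0.10). Another gene of the list, ascl1a, a proneural gene of retinal progenitors, stood at 0.11 (SE 0.082), and all 3 had an edgeR adjusted p of 0.939. These estimates were highest in pair 2.

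The 20 photoreceptor fate genes had a blocked median of 0.043, with 13 above and 7 below 0, and of 0.069 without pair 3. The repressor gene prdm1b had levels of 19.0, 17.7 and 15.4 CPM in wild-type heads and 21.5, 20.5 and 17.7 CPM in mutant replicates 1, 2 and 3. It was higher in the mutant in each pair, by 0.18, 0.21 and 0.20, although the groups overlapped. Its blocked log2 fold change was 0.20 (SE 0.050), at an unadjusted p of 0.00557 and an edgeR adjusted p of 0.939. The photoreceptor gene samd7 followed at 0.19 (SE 0.057), and thrb, the thyroid receptor gene required for red cones, at 0.08 (SE 0.042), and neither passed. In the 25 genes of ganglion cells and interneurons the median was -0.002, with 12 above and 13 below 0. The ganglion cell factor pou4f2 stood at 0.11 (SE 0.041) and did not pass (edgeR adjusted p 0.939).

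Genes that depend on six7 or nr2e3 in zebrafish, the green opsins and the rod cascade, were lower in the mutant in estimate, and none passed. Of 13 genes, 12 had a blocked estimate below 0, beside 12480 of all 24765 genes, with a median of -0.11. Lower in all 3 pairs were 4, beside 13.8% of all genes. In edgeR's blocked fit 3 of the 13 had an unadjusted p under 0.05, beside 4.6% of all genes. Without the block there were 0, beside 0.283% of all genes, and in blocked DESeq2 0, beside 397 of 24765 genes. The median of the list was -0.01 in pair 1, -0.19 in pair 2 and -0.10 in pair 3. In unblocked fits without 1 library, which leave replicate differences unbalanced between genotypes, the median estimate ran from -0.39 to 0.15. In blocked edgeR without pair 1, 2 or 3 it was -0.138, -0.089 and -0.075. Blocked DESeq2 gave -0.139, -0.078 and -0.081. Of 25 markers of mature retinal cells, 22 were below 0, beside 12480 of all 24765 genes, with a median of -0.12. Lower in all 3 pairs were 13 of them, beside 13.8% of all genes. The list includes pmela and dct, and the part of head tissue outside the retina in these values was not tested. In edgeR's blocked fit an unadjusted p under 0.05 was found for 10 of the 25 markers, beside 4.6% of all genes. Without the block there were 0, beside 0.283% of all genes, and in blocked DESeq2 7, beside 397 of 24765 genes. Of the markers, 2 were lower without overlap, beside 0.945% of all genes, and 0 passed. Rhodopsin (rho), the rod pigment, was at 346, 426 and 596 CPM in wild-type heads and 348, 381 and 469 CPM in mutant replicates 1, 2 and 3. The rod transducin gene gnat1 was at 26.3, 42.9 and 62.4 CPM in wild-type heads and 26.1, 35.2 and 59.0 in the mutants. Both genes were level in pair 1 and lower in the mutant in the other pairs, while nr2e3 was level in all of them.

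The green opsin gene opn1mw1 showed the greatest spread between pairs, at 159.9, 407 and 586 CPM in wild-type heads and 144, 261 and 561 in the mutants. Its pair ratios were -0.15, -0.64 and -0.06 (log2), and those of six7 were -0.08, 0.17 and -0.09. The estimates with the block were -0.17 (SE 0.067) for rho, -0.13 (SE 0.060) for gnat1 and -0.29 (SE 0.12) for opn1mw1, each with an edgeR adjusted p of 0.939. The tandem copies opn1mw3 and opn1mw4 were under 0.2 CPM in every library, and reads may be split among the 4 copies. That photoreceptor genes lean downward in these libraries was known when the list was drawn up, and the list is no independent evidence of it.

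**Figure D3:**
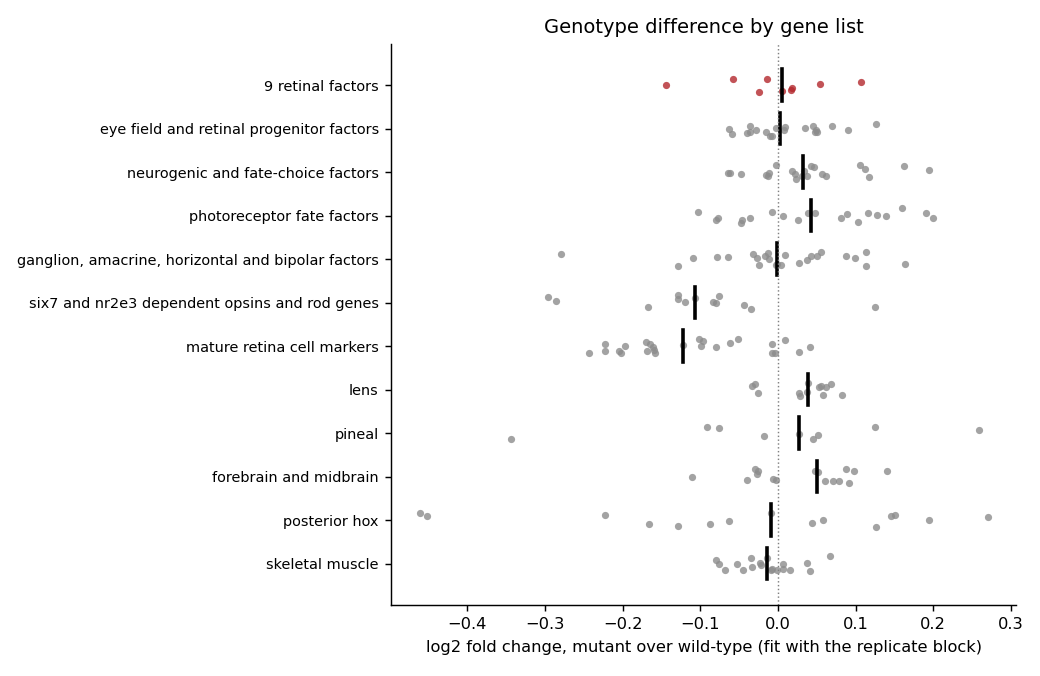
Log2 fold change of mutant over wild-type in the fit with the replicate block (horizontal axis) for each tested gene of the 9 retinal factors and of 11 other lists, with 1 point per gene and a black bar at the median of each list. The 9 factors (red) lie around 0, and the opsin and rod list and the mature retina markers have their medians at -0.11 and -0.12.

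Levels of these genes differed more between replicate numbers than between genotypes. In edgeR's F test of the 3 numbers (2 degrees of freedom, with genotype in the fit), 8 of the 9 passed an adjusted p of 0.05 and atoh7 did not (edgeR adjusted p 0.0706). Over all genes 57.6% passed. Of the members, 7 passed with replicate 1 low, as did 29.4% of all genes, and nrl passed with replicate 1 high, as did 28.2%. Both replicate 1 libraries lay below the other 4 for 8 members, beside 35% of all genes, and above them for nrl, beside 33.7%.

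The size of the replicate 1 difference separated the members into groups. Each edgeR adjusted p given beside it is from the F test of the 3 numbers together and not from this difference alone. The log2 difference of replicate 1 from the mean of the others, a description of a split already known, was -0.94 for six3a, -0.91 for six7 and -0.87 for rx1, and these 3 had edgeR adjusted p of 2.76e-05, 0.000122 and 3.27e-05. Their CPM in the other libraries was 1.92, 1.88 and 1.83 times that in replicate 1. An intermediate difference of -0.56 was found for six3b (edgeR adjusted p 0.000253). Smaller differences of -0.37, -0.36 and -0.21 were found for rx2, nr2e3 and vsx1, with edgeR adjusted p of 0.0195, 0.00142 and 0.0144, and atoh7 stood at -0.29. The single positive value was 0.61 for nrl (edgeR adjusted p 0.0214). Without the mutant replicate 1 library vsx1, rx2 and nrl no longer passed and 5 members did, and without the wild-type replicate 1 library vsx1 and rx2 no longer passed and 6 did.

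Library scaling bears on these values, since with library totals in place of TMM factors the median of all genes moved by -0.32 in this comparison. Under that scaling nrl remained above 0, at 0.28, but no longer passed (edgeR adjusted p 0.233), and atoh7 passed at -0.62 (edgeR adjusted p 0.00498). The other 7 members passed on either scale with replicate 1 low.

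Genes of other tissues differed between the same libraries. The 81 further retinal factors had a median of -0.47 in replicate 1 against the others, beside -0.01 for all tested genes. For 25 mature retina markers it was -0.53 and for 16 forebrain and midbrain genes -0.57. The forebrain and midbrain list shares fezf2, eomesa and barhl2 with the retinal factors. Lens genes stood at 0.20 (8 of 13 above 0), and summed to 9370 and 9904 CPM in replicate 1 and to between 6289 and 7068 CPM elsewhere. Zebrafish nrl is expressed in the lens as well as in photoreceptors. The pineal list, a site of photoreceptor gene expression outside the eye, stood at -0.26 (9 of 10 tested), with all 10 markers above 0 in some library. Skeletal muscle genes had a median of 2.09 and posterior hox genes of 2.78. The part of these tissues in the member values was not tested.

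**Figure D4:**
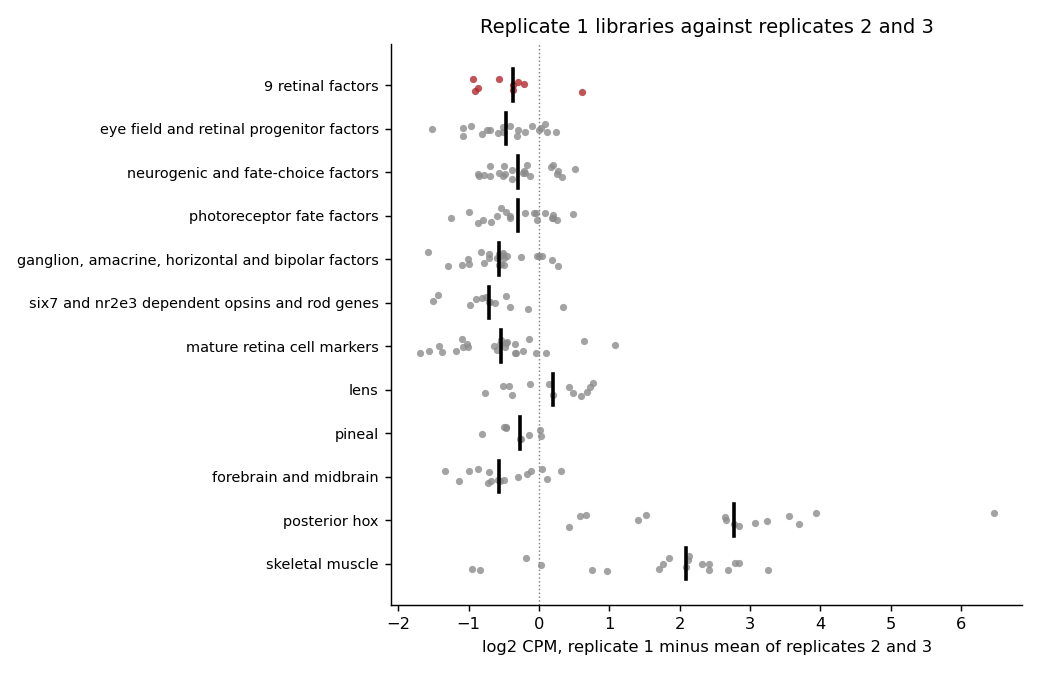
Log2 CPM of the replicate 1 libraries minus the mean of replicates 2 and 3 for the tested genes of each list, with 1 point per gene and a black bar at the median. The 9 retinal factors (red) run from -0.94 to 0.61, the 8 negative values lie within the range of the 4 further retinal factor lists, and posterior hox and skeletal muscle genes lie far to the right.

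Some single genes of the other retinal lists are given here for comparison. The first 5 had one of the 2 smallest p in the replicate test of their list, so their size is a description. The progenitor genes pax6a and pax6b stood at -1.08 and -1.51 in replicate 1 against the others, and the ganglion cell gene pou4f2 at -1.28. The red cone factor thrb was at -1.25 and the neurogenic gene neurod1, which is on in young photoreceptors and amacrine cells, at -0.86. The genes rlbp1b and rpe65a were named from the genotype test instead. Of these rlbp1b, a visual cycle gene of Müller glia, was at 0.10 and rpe65a, the retinoid isomerase of the pigment epithelium, at -0.04. A small p in that test, which has no block, favours genes with little replicate difference, so values near 0 follow partly from the choice. Of the 25 mature retina markers, 22 were below 0 in replicate 1 against the others, with a median of -0.53.

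Likeness of pattern was measured as the root mean square difference in log2 CPM over the 6 libraries, after centring each gene on its own mean. Among the members, rx1 and six3a were most alike at 0.048, followed by rx1 and six7 at 0.077 and by six3a and six7 at 0.077, while nrl and six3a were least alike at 0.74. Next came vsx1 and atoh7 at 0.11, rx2 and six3b at 0.11, and six3b and nr2e3 at 0.12. These values follow from the replicate difference described above, since all 6 libraries enter them.

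Of all tested genes, the 3 nearest to six7 were map7d2a (0.028), lhx2b (0.036) and foxo6b (0.038). Of these, lhx2b is an eye field gene of the progenitor list, at 20.8, 36.2 and 42.2 CPM in wild-type heads and 20.5, 41.97 and 40.3 in the mutants. For the other members only the nearest gene is named. The nearest gene to rx1 was hpca, which encodes a neuronal calcium sensor (0.019), and to six3a acsl3b (0.019). The nearest to vsx1 was pemt (0.014), to atoh7 rabgef1l (0.041), to rx2 zgc:66474 (0.019), to six3b si:dkey-31f5.11 (0.016), to nr2e3 cbx1a (0.012) and to nrl atxn3 (0.029). Of the 27 genes named by this measure, 3 for each member, 0 were themselves members, and lhx2b was the only gene of the retinal lists.

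In the RefSeq gene table of GRCz12tu, a later assembly consulted here for neighbours alone, six3a neighbours six2a and six3b neighbours six2b, a family pair kept in both copies. The vsx1 gene overlaps entpd6 and another protein-coding gene there, atoh7 overlaps pkd2l1, and rx2 and six7 each overlap a long non-coding RNA gene. Reads in the shared stretches could have been assigned to either gene or dropped, where both genes were in the annotation used for counting. That depends also on the strand setting, which is not given in the sources used here.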

How the data were processed

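Polyadenylated RNA from larval heads was made into libraries with the TruSeq stranded mRNA kit, per the labels' protocols, after RNA isolation with 1 of 2 kits whose assignment to libraries was not stated. Raw counts for each Ensembl gene were deposited by the authors. The submitters' processing notes list the build GRCz11, STAR 2.7.3, DESeq2 and Subread featureCounts 1.6.4, with no role for any of them. A deposited normalized table was not used.

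Counts were analysed in edgeR 4.0.16 (R 4.3.3; limma 3.58.1) with TMM factors, filterByExpr by genotype (24765 genes kept) and a 2-sided quasi-likelihood F test with robust dispersion, with Benjamini-Hochberg adjustment over all tested genes and a threshold of 0.05. The genotype test had genotype as its only term. A joint test of the replicate terms used genotype and replicate number. CPM used TMM factors, and pair ratios used log2 CPM with a prior count of 2. DESeq2 1.42.0, limma-voom, other scalings and filters, a replicate block and leaving out libraries or pairs were alternatives. RLE factors or library totals with the block, and DESeq2 without each pair, were added after the data were seen. Figures were drawn with matplotlib 3.10.9.

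Replicate numbers come from the labels, which name no shared clutch or batch. They were treated as pairs because, across genes, the departures of wild-type and mutant libraries of equal number from their group means correlated at 0.863, 0.579 and 0.744. Unmatched combinations of replicates 2 and 3 correlated at 0.418 and 0.365. No libraries were duplicates (chi-square per gene at least 4.78). Members, lists and tests were chosen with earlier results of these data known. Of 193 other list names, 190 matched a gene. Named genes were the members, in each other list up to 3 genes with the smallest genotype p and up to 2 with the smallest replicate p, every opsin and rod gene, srrm4, and the 3 genes most like each member. Genes sharing a name (4094) were kept apart by identifier.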

Additional observations from a re-analysis of the deposited data

How the results depend on the processing

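With the replicate block edgeR and limma-voom called 0 genes between genotypes and DESeq2 called 18. Between 0 and 15 genes were called when libraries or pairs were left out: 0 without any 1 library, 2 in blocked edgeR without pair 2, and 12, 15 and 7 in blocked DESeq2 without pair 1, 2 or 3. In all of these fits 0 of the 9 retinal factors passed, and the block changed no call of a member. With all libraries kept, only six7 and nrl changed sign, at estimates near 0. The six7 estimate became -0.0043 in limma-voom and -0.0014 with library totals and the block. The nrl estimate became -0.025, -0.017 and -0.039 with the block in edgeR, DESeq2 and limma-voom, -0.065 in limma-voom, -0.0054 with library totals, and -0.020 and -0.031 with the block and RLE factors or library totals. The cause was not tested. Without pair 1, blocked edgeR and DESeq2 gave -0.0077 and -0.0092 for rx1 and -0.169 and -0.171 for nrl. Without pair 2 they gave 0.0086 and 0.0074 for six3a and -0.081 and -0.082 for six7, again with opposite signs to the main estimates.

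Leaving out libraries or pairs, genotype estimates (log2) ranged from -0.014 to 0.21 for atoh7, -0.10 to 0.14 for nr2e3, -0.30 to 0.21 for nrl, -0.23 to 0.24 for rx1, -0.25 to -0.02 for rx2, -0.27 to 0.23 for six3a, -0.23 to 0.10 for six3b, -0.22 to 0.27 for six7 and -0.0085 to 0.13 for vsx1. Fits without 1 library had no block and left the replicate 1 difference unbalanced between genotypes. In the test of replicate numbers, leaving out 1 library gave between 7940 and 16891 genes and between 5 and 8 members called. DESeq2 called 7 members, without vsx1 (DESeq2 adjusted p 0.0642), and the other alternatives with all libraries called 8. Signs of all 9 members were the same throughout that comparison. With the block, the widest intervals were those of atoh7 and nrl, the members with the lowest counts.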
